A study of Mus musculus with 45 samples.

Results

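The 10 genes described here encode enzymes, a transporter and receptors of adenosine and extracellular ATP. They are Nt5e, Entpd1, Ada, Adk, Pnp, Slc29a1, Dpp4, Adora2a, P2rx7 and P2rx4, and were chosen by symbol from the 55450 genes of the counts table. Their mRNA was counted by RNA-sequencing in 45 samples of lymphocytes sorted from the draining popliteal lymph nodes of mice, after footpad immunization with 50 µg OVA and 5 µg LPS in an emulsion with Incomplete Freund's Adjuvant. The study asked how loss of S1PR4, a receptor for sphingosine-1-phosphate, alters lymphocytes of the germinal center (GC) reaction.

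Each population was taken from WT mice and from S1PR4-/- mice of the strain B6.129P2-S1pr4tm1Dgen/J, which had been backcrossed to C57/BL6 for at least 10 generations. Male and female mice of 8 to 12 weeks were used, with WT littermates as controls. The S1PR4-/- mice lacked the receptor in every cell, so effects inside a lymphocyte and effects of its surroundings cannot be told apart. All mice were immunized. TFH cells (TCRβ+ CD4+ PD1+ CXCR5+) and non-TFH CD4+ T cells (TCRβ+ CD4+ PD1- CXCR5-) came from day 6. GC B cells (B220+ GL7+ Fas+) and non-GC B cells (B220+ GL7- Fas-) came from day 9, so B cell and T cell differences cannot be told apart from those between days. Non-GC B cells gave 5 WT and 4 S1PR4-/- samples, and every other group had 6. The labels do not say whether each sample came from a single mouse, and p-values measure the spread between these samples.

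Total counts lay between 26299429 and 45548215 per sample. The counts of S1pr4 were 505 to 6305 in the WT samples and 0 to 40 in the S1PR4-/- samples. All 8 B cell markers were at 1 CPM (the count of a gene scaled to the size of its library) or more on average in the B cell groups, and all 8 T cell markers in the T cell groups. The same held for the 6 GC B markers in GC B cells and the 6 TFH markers in TFH cells. That level alone does not separate the populations, as WT TFH cells also reached it for all 8 B cell markers. Their summed level there was 161 to 425 CPM, against 7048 to 10812 CPM in WT GC B cells.

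ATP leaves activated or damaged cells and binds P2X receptors, ion channels of the cell membrane. CD39 (Entpd1) and CD73 (Nt5e) at the cell surface turn it stepwise into adenosine, which binds adenosine receptors such as that encoded by Adora2a and restrains many lymphocyte responses. Adenosine is also taken up through the equilibrative transporter ENT1 (Slc29a1) and is then phosphorylated by adenosine kinase (Adk) or deaminated by adenosine deaminase (Ada), whose product inosine is split by purine nucleoside phosphorylase (Pnp). CD26 (Dpp4) is a surface peptidase that in some species binds adenosine deaminase.

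The sequence just before the first annotated start of transcription is shown for 4 genes. These are Ada and P2rx7, which had the largest changes among the 10 genes in GC B cells and in TFH cells, and Dpp4 and P2rx4, which were lower in GC B cells. Sequences are from RefSeq on GRCm38.p6 (mm10), 5′ to 3′ on the strand of the gene, and end where the annotated gene begins. Capitals mark the motifs found on either strand. The GC box (GGGCGG), the CCAAT box, the TATA box (TATAAA) and E-boxes of the forms CAGGTG and of CACGTG were searched.
Ada, chr2:163750240-163750389, minus strand: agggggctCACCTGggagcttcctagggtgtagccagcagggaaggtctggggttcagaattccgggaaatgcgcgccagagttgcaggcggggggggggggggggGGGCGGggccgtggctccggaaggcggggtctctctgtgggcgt
P2rx7, chr5:122643777-122643910, plus strand: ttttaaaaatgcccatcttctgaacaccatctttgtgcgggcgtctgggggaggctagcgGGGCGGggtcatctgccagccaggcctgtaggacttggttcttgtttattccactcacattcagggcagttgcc
Dpp4, chr2:62412232-62412381, minus strand: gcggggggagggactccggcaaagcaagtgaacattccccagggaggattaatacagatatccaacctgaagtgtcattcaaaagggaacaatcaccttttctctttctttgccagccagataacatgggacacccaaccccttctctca
P2rx4, chr5:122707394-122707543, plus strand: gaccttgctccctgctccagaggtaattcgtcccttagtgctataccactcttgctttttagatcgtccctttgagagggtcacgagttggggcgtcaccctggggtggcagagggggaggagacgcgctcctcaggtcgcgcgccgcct

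The Ada window held 1 GC box and 1 CAGGTG motif on the reverse strand, the printed P2rx7 window 1 GC box, and the Dpp4 and P2rx4 windows none of the motifs. The P2rx7 window is printed as 134 bases, and the uncut window of 150 bases held 2 GC boxes. A further start of P2rx7 is annotated 6472 bases into the gene. Its window (chr5:122650233-122650382) held none of the motifs, and which start these cells used was not tested. Over the 32851 windows of 150 bases in the table, 28.6% held a GC box, 24.5% a CCAAT box, 7.57% this TATA box, 10.6% the E-box CAGGTG and 4.3% the E-box CACGTG. P2rx7 (chr5:122643911-122691432, plus strand) and P2rx4 (chr5:122707544-122729738, plus strand) are neighbors on chromosome 5. Ada lies at chr2:163726584-163750239 and Dpp4 at chr2:62330073-62412231, both on the minus strand of chromosome 2. Each of the 4 is annotated as protein coding, and a window was found for 9 of the 10 genes, all except Adora2a.

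**Figure D1:**
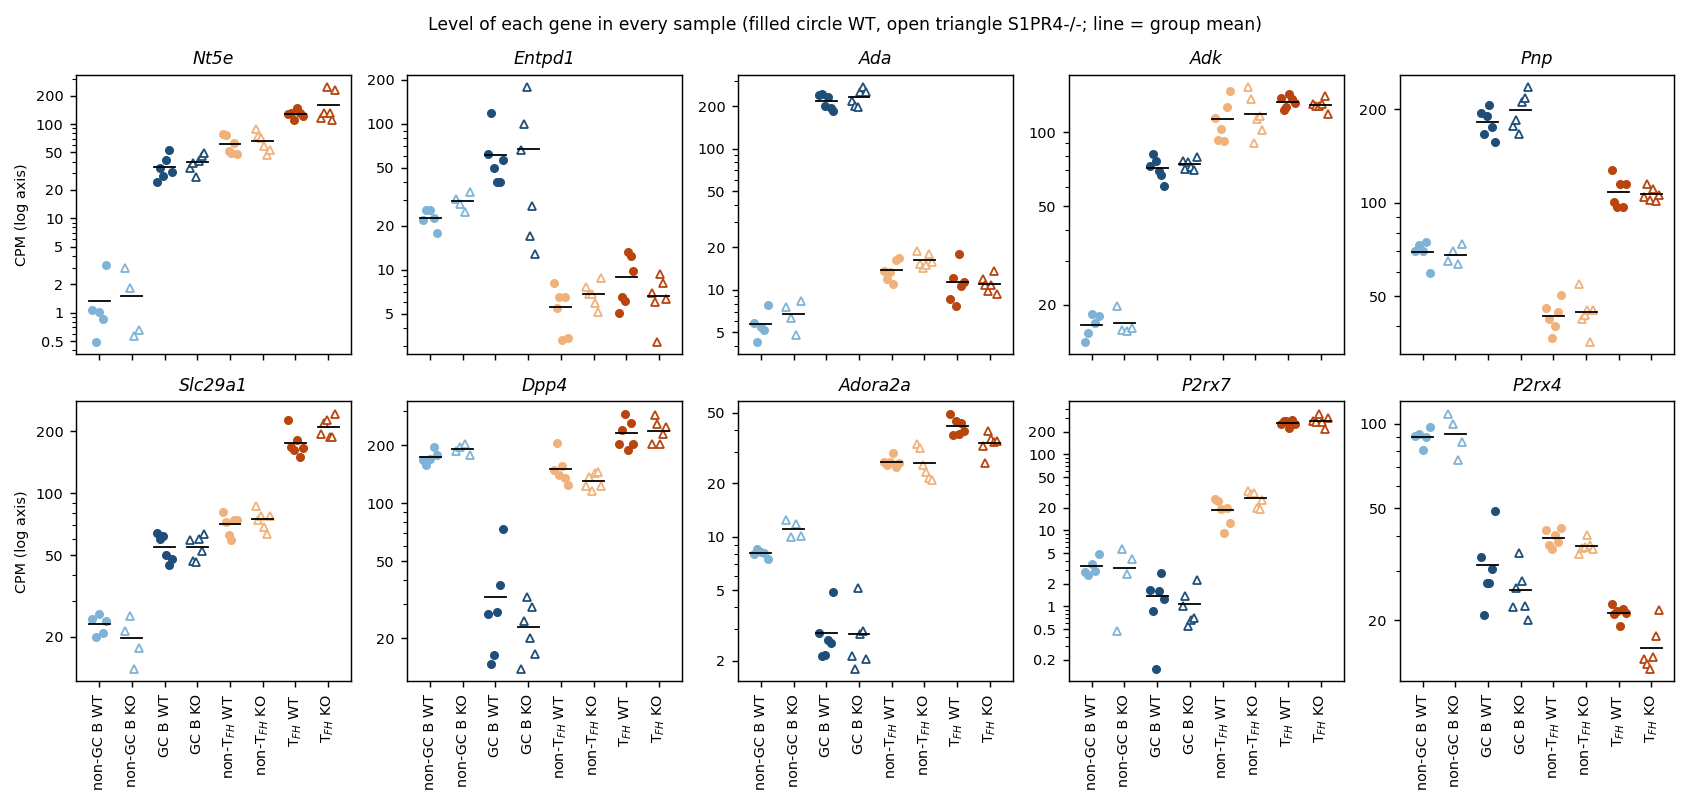
Level of each gene in all 45 samples, in CPM on a log axis, with a line at the mean of each group (filled circles WT, open triangles S1PR4-/- or KO). Ada stands apart in GC B cells and P2rx7 in TFH cells, while circles and triangles of one population mostly overlap.

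WT GC B cells held far more Ada and Nt5e mRNA than WT non-GC B cells, and less Adora2a, P2rx4 and P2rx7 mRNA. The calls of these receptors and of Entpd1, Slc29a1 and Dpp4 depended, in WT mice, on a covariate described below that itself separates these populations. In WT mice, 6 genes were higher and 4 were lower in GC B cells, all 10 past an adjusted p of 0.05 and a fold change of 1.5 by edgeR. The same thresholds were passed by 47.8% of all genes tested in this comparison, 24.8% as higher and 23.1% as lower. The median log2 fold change was 1.38 over the 10 genes and 0.00 over all genes. All 10 genes passed the filter on low counts in this and every other comparison.

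Ada, which deaminates adenosine, showed the largest change. Its level in WT GC B cells ranged from 185 to 243 CPM with a median of 217 CPM, and in WT non-GC B cells it was 5.78, 4.29, 5.49, 5.19 and 7.82 CPM. Every GC B sample was thus far above every non-GC B sample. The log2 fold change was 5.30 (SE 0.16, adjusted p = 5.54e-10, edgeR), 39.5-fold. Ada ranked 2nd by p-value among the 13324 genes tested. Per kilobase of exon, Ada had the highest level of the 10 genes in WT GC B cells, at 107.8 CPM per kb.

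Nt5e encodes CD73, which releases adenosine from AMP. It was low in WT non-GC B cells, at 1.08, 0.492, 1.02, 0.854 and 3.2 CPM. In WT GC B cells it ranged from 24 to 52.5 CPM with a median of 32.3 CPM. The groups did not overlap, and the log2 fold change was 4.80 (SE 0.43, adjusted p = 7.6e-07, edgeR), 27.9-fold.

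Entpd1 encodes CD39, the enzyme upstream of CD73. Its level in WT GC B cells was 39.7 to 118 CPM with a median of 53.6 CPM, against 22.1, 25.6, 25.7, 22.7 and 17.8 CPM in WT non-GC B cells. The log2 fold change was 1.5 (SE 0.27, adjusted p = 0.000283, edgeR). In S1PR4-/- mice the values in GC B cells were more scattered, at 66.2, 99.4, 178, 17.1, 27.4 and 12.8 CPM, so that 3 of 6 samples lay within or below the range of the S1PR4-/- non-GC B samples (24.9 to 34.1 CPM). Entpd1 did not pass there (log2 fold change 1.23, SE 0.66, adjusted p = 0.12, edgeR).

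The level of Entpd1 in GC B samples moved with markers of plasma cells. The summed level of 7 plasma cell markers was 3991 to 8766 CPM in WT and 2037 to 17656 CPM in S1PR4-/- GC B samples, against 511 to 855 CPM in WT non-GC B samples. Over the 12 GC B samples, log2 levels of Entpd1 and the marker score had a Pearson r of 0.986, as a description over samples that share a sort and a protocol (r = 0.966 within 6 WT and 0.99 within 6 S1PR4-/- samples). All 7 markers were at 1 CPM or more on average in both GC B groups, as were 6 of the 7 in both non-GC B groups. With the plasma cell marker score as a covariate, an alternative chosen after seeing the data, the log2 fold change of Entpd1 from non-GC B to GC B cells was -0.66 in WT (adjusted p = 0.367, edgeR) and -2.21 in S1PR4-/- mice (adjusted p = 0.000325). In that fit for WT samples the calls of Nt5e (log2 fold change 7.16), Ada, Adk and Pnp remained. Those of the other 6 genes were lost, with the values given beside each gene. The WT fit called 1359 of all genes, against 6372 without the score. The score was 6.57 to 8.09 in WT GC B and 3.06 to 4.81 in WT non-GC B samples. The groups did not overlap in the score, so the fit can hardly separate score from population. The standard errors of Slc29a1, Dpp4, Adora2a and P2rx4 grew, so a lost call does not show an absent change. In S1PR4-/- mice the same fit kept the calls of Nt5e, Ada, Adk, Pnp, Slc29a1, Dpp4, Adora2a and P2rx4, and lost that of P2rx7. In bulk samples, a change in the share of cells that express a gene and a change in RNA per cell cannot be told apart.

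**Figure D2:**
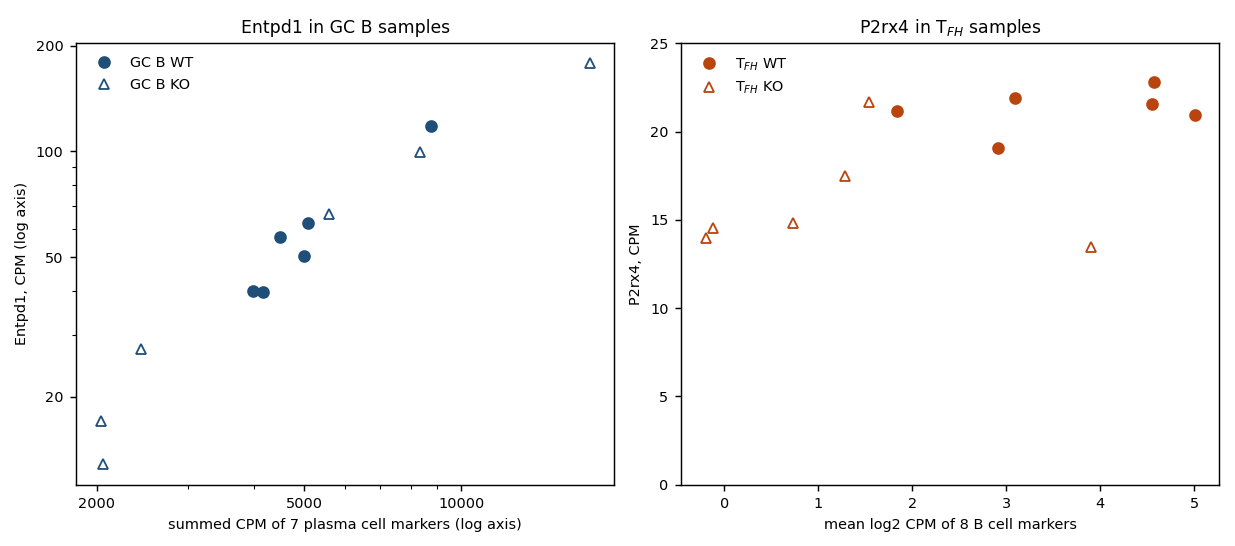
Left, Entpd1 (CPM) against the summed CPM of 7 plasma cell markers in the 12 GC B samples, both on log axes; right, P2rx4 (CPM) against the mean log2 CPM of 8 B cell markers in the 12 TFH samples. Entpd1 follows the marker sum within each genotype, from 3991 to 8766 CPM in WT and from 2037 to 17656 CPM in S1PR4-/- samples, whereas P2rx4 shows no such line within a genotype.

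The transporter and the purine enzymes inside the cell were higher too. Adk was at 60.6 to 81.8 CPM in WT GC B cells and at 14.1, 15.3, 18.3, 16.8 and 17.9 CPM in WT non-GC B cells (log2 fold change 2.18, SE 0.11, adjusted p = 6.49e-09, edgeR). Pnp averaged 182 ± 18.3 CPM in WT GC B and 69.3 ± 6.03 CPM in WT non-GC B cells (SD, n = 6 and n = 5), 2.74-fold higher (log2 fold change 1.46). Slc29a1, the transporter, averaged 54.7 ± 8.09 and 23.1 ± 2.49 CPM in the same groups, 2.48-fold higher (log2 fold change 1.31). With the plasma cell marker score as a covariate, Slc29a1 was at 0.93 (SE 0.35, against 0.12 without the score) and no longer called (adjusted p = 0.108, edgeR). In these 3 genes every WT GC B sample was above every WT non-GC B sample.

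Counts of Pnp carry some uncertainty. Of the 31-base words of its exons, 22.7% also occur in other genes, among them the overlapping gene Gm49342 on the same strand (17.5%) and the paralog Pnp2 (15.1%). RSEM, which shares reads among such genes, gave Gm49342 no more than 12 counts in any sample. For the other 9 genes the share of such words was at most 3.94%. Pnp, Slc29a1 and Dpp4 also overlap exons of a gene on the opposite strand, and the strand setting of the counting was not given in the sources used here.

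Dpp4 fell the most. WT GC B cells had 26.6, 14.8, 16.3, 27.3, 37.5 and 73.3 CPM and WT non-GC B cells 168, 159, 170, 195 and 177 CPM, 5.12-fold lower in GC B cells (log2 fold change -2.36, SE 0.34, adjusted p = 4.92e-05, edgeR). With the plasma cell marker score as a covariate it was -1.24 (SE 1.04) and no longer called (adjusted p = 0.476). The 6th WT GC B sample, highest in Dpp4, was also highest among WT GC B samples in Adora2a (4.9 CPM), in P2rx4 (49 CPM) and in S1pr1 (164 CPM), which encodes another receptor for sphingosine-1-phosphate. The other 5 had 38.7 to 91.6 CPM of S1pr1. The summed level of 10 myeloid and dendritic cell markers was 309 CPM in the 6th sample and 106 to 201 CPM in the other 5. In WT non-GC B samples it was 13.9 to 56.3 CPM. The part of other B cells or of other cell types in the values of the 6th sample was not tested.

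The 3 receptors were lower in GC B cells. P2rx4, a P2X channel found also on intracellular membranes, averaged 31.4 ± 9.62 CPM in WT GC B and 90 ± 6.14 CPM in WT non-GC B cells (SD, n = 6 and n = 5), with a log2 fold change of -1.46. Adora2a averaged 2.86 ± 1.04 and 8.08 ± 0.381 CPM in these groups, with a log2 fold change of -1.43. Neither gene overlapped between the groups. With the plasma cell marker score as a covariate both calls were lost, at -0.86 for P2rx4 (SE 0.51, adjusted p = 0.295, edgeR) and -1.34 for Adora2a (SE 0.67, adjusted p = 0.217). Without the score their SE was 0.17 and 0.21. P2rx7, the channel that opens at high ATP, was low in both B cell groups, at 0.152 to 2.74 CPM in GC B and 2.62 to 4.87 CPM in non-GC B cells. Its groups overlapped, and its call (log2 fold change -1.23, SE 0.48, adjusted p = 0.0354, edgeR) was lost when any one of WT GC B samples 2, 4 and 6 or WT non-GC B samples 3 and 5 was left out (adjusted p 0.0512 to 0.0829), and with the plasma cell score its log2 fold change was 0.46 (adjusted p = 0.856).

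In S1PR4-/- mice the same comparison called 9 of the 10 genes, where 48.2% of all genes were called, with Entpd1 as the exception. Ada averaged 231 ± 30.5 CPM in GC B and 6.76 ± 1.56 CPM in non-GC B cells (SD, n = 6 and n = 4), with a log2 fold change of 5.16. Nt5e (4.79), Adk (2.20), Pnp (1.61), Slc29a1 (1.54), Dpp4 (-3.01), Adora2a (-1.91), P2rx7 (-1.51) and P2rx4 (-1.79) were called, with log2 fold changes as given. The call of P2rx7 was lost without any one of 7 of the 10 samples, GC B samples 1, 3, 4 and 5 and non-GC B samples 2, 3 and 4 (adjusted p 0.0512 to 0.134), and with the plasma cell score (adjusted p = 0.319, edgeR).

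**Figure D3:**
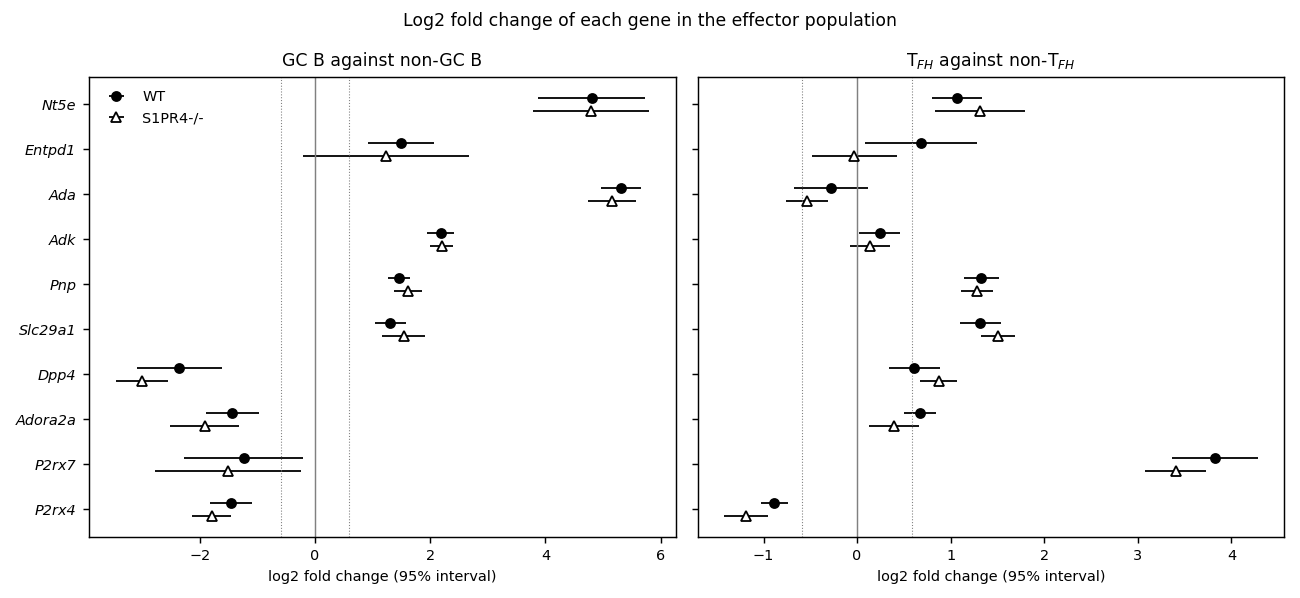
Log2 fold change of each gene from non-GC B to GC B cells (left) and from non-TFH to TFH cells (right), with 95% intervals; filled circles are WT and open triangles S1PR4-/-, and dotted lines mark a 1.5-fold change. Ada and Nt5e lie above 4 on the left only, P2rx7 lies above 3 on the right only, and P2rx4 lies below 0 in both panels.

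In TFH cells the pattern was another: the ATP receptor P2rx7 changed the most and Ada was not called. In WT mice, 7 of the 10 genes were higher in TFH than in non-TFH cells, 1 was lower and 2 were not called, where 43.2% of all genes were called, 22.8% as higher and 20.4% as lower. The median log2 fold change was 0.68 over the 10 genes and 0.00 over all genes. The groups did not overlap in 6 of the 10 genes, and the share of all genes without overlap was not counted. Markers of other cells moved with this comparison: the summed level of 8 B cell markers was 161 to 425 CPM in WT TFH and 11.1 to 45.5 CPM in WT non-TFH samples, and that of 7 plasma cell markers was 282 to 649 and 117 to 164 CPM. With the B cell marker score as a covariate, 7 of the 10 genes were called, and the call of Dpp4 was lost. That fit called 4850 of all genes, against 5824 without the score.

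P2rx7 ranged from 224 to 285 CPM in WT TFH cells, with a median of 264 CPM, and from 9.24 to 26 CPM in WT non-TFH cells, with a median of 19.4 CPM. The log2 fold change was 3.82 (SE 0.21, adjusted p = 1.24e-09, edgeR), 14.2-fold. Per kilobase of exon, P2rx7 (43.75 CPM per kb) and Slc29a1 (43.81 CPM per kb) had the highest levels of the 10 genes in WT TFH cells. P2rx4, its neighbor on the chromosome, went the other way, with 19.1 to 22.8 CPM in WT TFH and 35.9 to 42.5 CPM in WT non-TFH cells (log2 fold change -0.89, SE 0.07, adjusted p = 3.27e-08, edgeR).

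Nt5e, already high in non-TFH cells (48.2 to 77.6 CPM), reached 111 to 147 CPM in WT TFH cells (log2 fold change 1.07, SE 0.13, adjusted p = 2.79e-06, edgeR). Pnp rose from 43.3 ± 4.73 to 109 ± 12.5 CPM and Slc29a1 from 70.5 ± 7.97 to 176 ± 27.4 CPM (SD, n = 6 each), log2 fold changes of 1.33 and 1.32. None of these 3 genes overlapped between the groups. Adora2a was also higher, at 42.1 ± 4.56 against 26.4 ± 1.75 CPM (log2 fold change 0.67, SE 0.08, adjusted p = 2.68e-06, edgeR).

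Dpp4 and Entpd1 passed closer to the thresholds, and their groups overlapped. Dpp4 was at 190 to 290 CPM in WT TFH and 124 to 205 CPM in WT non-TFH cells (log2 fold change 0.61, SE 0.13, adjusted p = 0.000594, edgeR). It fell under a 1.5-fold change when WT TFH sample 3 or 5 or WT non-TFH sample 5 or 6 was left out (log2 fold change 0.54 to 0.58). Entpd1 was low in both groups, at 5.06, 6.46, 6.1, 13.3, 12.5 and 9.8 CPM in WT TFH and 3.28 to 8.09 CPM in WT non-TFH cells (log2 fold change 0.68, SE 0.28, adjusted p = 0.0429, edgeR). Its call was lost without WT TFH sample 4, 5 or 6 or WT non-TFH sample 2, 4, 5 or 6 (adjusted p 0.0503 to 0.109), and with the regulatory T cell marker score as a covariate (log2 fold change 0.20, adjusted p = 0.64). With the B cell marker score instead, the log2 fold change was 1.79 (adjusted p = 0.00175, edgeR). WT TFH samples 4 and 5, highest in Entpd1, also had the highest sums of plasma cell markers, 649 and 559 CPM, whose part in this value was not tested. The summed level of 5 regulatory T cell markers was 501 to 898 CPM in WT TFH and 334 to 582 CPM in WT non-TFH samples. No other call among the 10 genes changed with the regulatory T cell score in WT samples.

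Adk was at 123 to 142 CPM in WT TFH and 92.2 to 147 CPM in WT non-TFH cells and did not reach the fold threshold (log2 fold change 0.24, adjusted p = 0.0472, edgeR). Ada was at 11.4 ± 3.61 and 13.9 ± 2.29 CPM (SD, n = 6 each), with a log2 fold change of -0.28 (95% interval -0.67 to 0.11, adjusted p = 0.191). In S1PR4-/- mice 6 of the 10 genes were called, where 43.4% of all genes were. These were Nt5e (log2 fold change 1.31), Pnp (1.28), Slc29a1 (1.51), Dpp4 (0.87), P2rx7 (3.41) and P2rx4 (-1.18). Entpd1 had a log2 fold change of -0.03, and Ada (-0.53, adjusted p = 0.000389, edgeR) and Adora2a (0.39, adjusted p = 0.0121) stayed under a 1.5-fold change.

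A direct test asked whether the change from non-GC B to GC B cells differed from that from non-TFH to TFH cells in WT mice. It was called for 7 of the 10 genes, where 41.7% of all genes were called at an adjusted p of 0.05. The difference of log2 fold changes, B cells minus T cells, was 5.52 for Ada (SE 0.25), 3.68 for Nt5e (SE 0.38), 1.87 for Adk (SE 0.15), -2.17 for Adora2a (SE 0.21), -3.02 for Dpp4 (SE 0.38) and -5.13 for P2rx7 (SE 0.44). For these 6 genes the adjusted p was 9.07e-07 or lower (edgeR). P2rx4 was lower in both effector populations and more so in GC B cells (-0.63, SE 0.18, adjusted p = 0.00799).

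For Pnp and Slc29a1 no difference between the lineages was found. The difference was 0.06 for Pnp (95% interval -0.19 to 0.32, adjusted p = 0.722, edgeR) and -0.07 for Slc29a1 (95% interval -0.39 to 0.25, adjusted p = 0.752). For Entpd1 it was 0.75 (95% interval -0.09 to 1.59, adjusted p = 0.148). Dpp4, Adora2a and P2rx7 were lower in GC B cells and higher in TFH cells.

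Between the WT effector populations, 9 of the 10 genes differed, where 44.3% of all genes were called. P2rx7 was 190.1-fold lower in GC B than in TFH cells (log2 fold change -7.57, SE 0.37, adjusted p = 5.06e-10, edgeR) and Adora2a 14.6-fold lower (log2 fold change -3.87). Dpp4 was 7.04-fold, Nt5e 3.62-fold, Slc29a1 3.19-fold and Adk 1.85-fold lower in GC B cells. Ada was 19-fold, Entpd1 6.94-fold and Pnp 1.69-fold higher there. P2rx4 was not called (log2 fold change 0.57, adjusted p = 0.00639), as its fold was under 1.5.

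Between WT non-GC B and WT non-TFH cells, 9 of the 10 genes differed as well, where 38.9% of all genes were called. Entpd1 (log2 fold change 2.1), P2rx4 (1.26) and Pnp (0.74) were higher in non-GC B cells. Nt5e (-5.48), Adk (-2.71), P2rx7 (-2.39), Adora2a (-1.65), Slc29a1 (-1.55) and Ada (-1.21) were lower. Dpp4 had the highest level per kilobase of the 10 genes in both, at 27.52 CPM per kb in non-GC B and 23.97 CPM per kb in non-TFH cells, and was not called between them (log2 fold change 0.26, 95% interval 0.02 to 0.50, adjusted p = 0.0614, edgeR).

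**Figure D4:**
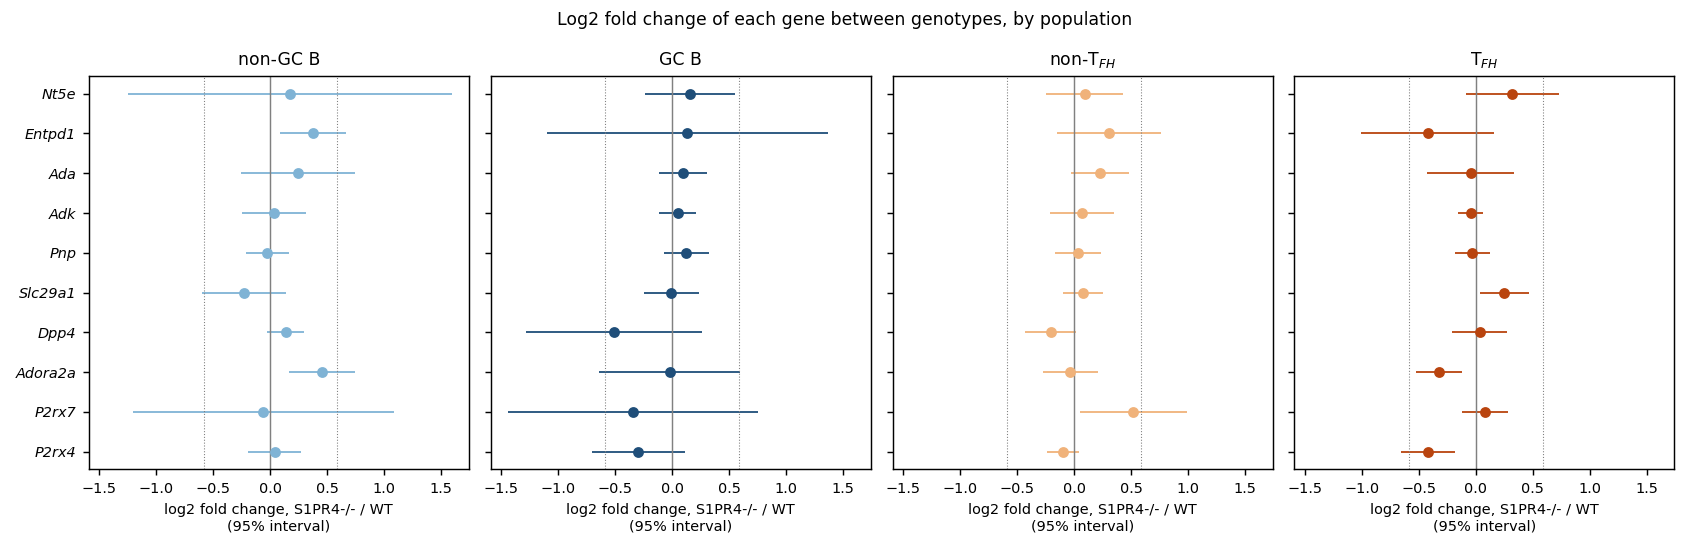
Log2 fold change of each gene between S1PR4-/- and WT samples in each population, with 95% intervals; dotted lines mark a 1.5-fold change. All 40 points lie between -0.51 and 0.52.

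Loss of S1PR4 left no called change in any of the 10 genes. None was called between S1PR4-/- and WT samples in GC B cells, non-GC B cells, TFH cells or non-TFH cells by edgeR, and none by DESeq2 or limma. Of all genes, 0.0612% were called in GC B cells, 0.0537% in non-GC B cells, 0.496% in TFH cells and 0.114% in non-TFH cells. An unadjusted p under 0.05 was found for 0, 2, 3 and 1 of the 10 genes in these populations, and for 4.13%, 4.55%, 19.2% and 11.3% of all genes. The precision differed by gene: in GC B cells the 95% interval ran from -0.11 to 0.21 for Adk and from -1.10 to 1.37 for Entpd1 on the log2 scale.

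P2rx4 and Adora2a in TFH cells came nearest. P2rx4 was at 22.8, 21, 21.6, 19.1, 21.9 and 21.2 CPM in WT and at 14.5, 14, 13.4, 14.8, 17.5 and 21.7 CPM in S1PR4-/- TFH cells. A single S1PR4-/- sample, the 6th, lay within the WT range. The log2 fold change was -0.42 (95% interval -0.65 to -0.18, adjusted p = 0.069, edgeR). With DESeq2 the adjusted p was 0.0118 and without the 6th S1PR4-/- sample it was 0.0251, and the change stayed under 1.5-fold in both.

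Adora2a in TFH cells was at 49.1, 37.3, 44.8, 38.1, 43.7 and 39.6 CPM in WT and at 32.4, 26.1, 39.6, 35.7, 34 and 34.6 CPM in S1PR4-/- mice. The ranges met at 37.3 to 39.6 CPM. The log2 fold change was -0.33 (95% interval -0.53 to -0.12, adjusted p = 0.0844, edgeR), with an adjusted p of 0.0263 by DESeq2 and 0.0475 without the 3rd S1PR4-/- sample, again under 1.5-fold.

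Markers of other cells differed between the same TFH samples. The summed level of 8 B cell markers was 161 to 425 CPM in WT and 149 to 269 CPM in S1PR4-/- TFH samples, and that of 10 myeloid and dendritic cell markers was 437 CPM in the 6th S1PR4-/- sample and 15.3 to 81.3 CPM in the others. The B cell marker score, the mean log2 CPM of these 8 markers, was 1.84 to 5.01 in WT and -0.20 to 3.90 in S1PR4-/- TFH samples. Its group means were 3.66 and 1.19, so score and genotype are hard to tell apart in a fit that holds both. With this score as a covariate, the log2 fold change was -0.38 for P2rx4 (adjusted p = 0.414, edgeR) and -0.14 for Adora2a (adjusted p = 0.749). Over the 12 samples the Pearson r with that score was 0.571 for P2rx4 and 0.797 for Adora2a; within genotypes it was 0.346 (WT) and -0.01 (S1PR4-/-) for P2rx4 and 0.296 and 0.791 for Adora2a. These are descriptions over samples that differ in genotype.

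Nt5e in S1PR4-/- TFH cells was uneven, at 116, 130, 245, 131, 111 and 229 CPM, against 111 to 147 CPM in WT TFH cells. Samples 3 and 6 were far above the rest, and they had the lowest summed level of regulatory T cell markers among TFH samples, at 489 and 424 CPM against 501 to 920 CPM. The log2 fold change was 0.32 (SE 0.19, adjusted p = 0.378, edgeR). Slc29a1 in TFH cells had 0.25 (SE 0.10, adjusted p = 0.196) and Entpd1 -0.42 (SE 0.27, adjusted p = 0.422). The part of the markers in these values was not tested.

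In the other populations the unadjusted values pointed to 3 more comparisons. Adora2a in non-GC B cells was at 12.3, 9.92, 11.7 and 10.1 CPM in S1PR4-/- and at 8.03, 8.49, 8.25, 8.14 and 7.46 CPM in WT mice. The groups did not overlap, yet the change did not pass (log2 fold change 0.45, SE 0.13, adjusted p = 0.981, edgeR). Adora2a lies 6.16 Mb from S1pr4 on chromosome 10, and the part of sequence linked to the S1pr4 allele was not tested. Entpd1 in non-GC B cells had a log2 fold change of 0.38 (adjusted p = 0.981), and P2rx7 in non-TFH cells 0.52 (SE 0.22, adjusted p = 0.391, edgeR), with 19.4 to 32.8 CPM in S1PR4-/- and 9.24 to 26 CPM in WT mice.

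The difference between the genotypes in the change from non-GC B to GC B cells, or from non-TFH to TFH cells, was also tested for each gene. None of the 10 was called by edgeR, DESeq2 or limma, where edgeR called 0% and 0.0139% of all genes. An unadjusted p under 0.05 was found for 0 of the 10 in B cells and for 1, P2rx4, in T cells. Its difference of log2 fold changes, S1PR4-/- minus WT, was -0.32 (95% interval -0.58 to -0.06, adjusted p = 0.435, edgeR).

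Other genes of purine metabolism and signaling were followed as a list of 59. In WT GC B against non-GC B cells, 35 of them were tested, of which 11 were higher, 9 lower and 15 not called (57.1% called, beside 47.8% of all genes), with a median log2 fold change of 0.14. Between WT TFH and non-TFH cells, 36 were tested, of which 12 were higher, 10 lower and 14 not called (61.1%, beside 43.2% of all genes), with a median of 0.26. Between the genotypes edgeR called no gene of the list; an unadjusted p under 0.05 was found for 3 of 35 tested in GC B, 3 of 33 in non-GC B, 8 of 40 in TFH and 5 of 35 in non-TFH cells, beside 4.13%, 4.55%, 19.2% and 11.3% of all genes. The other 3 adenosine receptors, Adora1, Adora2b and Adora3, did not pass the filter on low counts in these comparisons, and their group means were 0.308 CPM or lower.

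The counts of each group of the list stand beside 24.8% of all genes higher and 23.1% lower in GC B cells, and 22.8% and 20.4% in TFH cells. Among surface enzymes (13 on the list), 3 were higher and 2 lower of 7 tested in GC B cells, and 4 higher and 1 lower of 8 tested in TFH cells. Alpl, tissue-nonspecific alkaline phosphatase, was higher in both, at 50.6 CPM in GC B and 4.98 CPM in non-GC B cells (log2 fold change 3.41, SE 0.39, adjusted p = 5.95e-06, edgeR) and at 8.04 against 0.582 CPM in TFH and non-TFH cells (log2 fold change 3.78, SE 0.48, adjusted p = 6.18e-06). Among receptors of ATP and other nucleotides, 1 was higher and 1 lower of 5 tested in GC B cells, and 3 higher and 0 lower of 4 in TFH cells. P2ry10, which has lysophospholipid ligands in spite of its name, was at 30.2 CPM in GC B and 121 CPM in non-GC B cells (log2 fold change -1.94).

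Of the nucleoside transporters, 2 of 4 tested were lower in GC B cells and none higher (all genes: 23.1% lower), and in TFH cells 1 was higher and 2 lower of 4 (all genes: 22.8% and 20.4%). Slc29a4, a transporter of monoamines and adenosine, was at 3.93 against 0.438 CPM in TFH and non-TFH cells (log2 fold change 3.16, SE 0.32, adjusted p = 5.48e-07, edgeR). Of the genes for ATP release, 1 of 3 tested was lower in GC B cells and 2 of 3 in TFH cells, with none higher.

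Of the intracellular purine enzymes, 7 were higher and 3 lower of 16 tested in GC B cells (62.5% called, beside 47.8% of all genes), and 4 higher and 5 lower of 17 in TFH cells (52.9%, beside 43.2%). Ampd1, an AMP deaminase, was at 0.498 against 28.4 CPM in TFH and non-TFH cells (log2 fold change -5.80, SE 0.23, adjusted p = 5.69e-11, edgeR). Pnp2, the paralog of Pnp, was at 17.9 CPM in GC B and 0.142 CPM in non-GC B cells (log2 fold change 6.91, SE 0.53) and at 1.97 against 0.116 CPM in TFH and non-TFH cells (4.02, SE 0.55), with the limit on shared sequence given above. Xdh, xanthine dehydrogenase, was at 1.56 CPM in GC B and 5.96 CPM in non-GC B cells (log2 fold change -1.87).

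The genes most like each of the 10 were found by Pearson's r of log2 CPM over all 45 samples, which mostly reflects the differences between the 4 populations. Dpp4 was closest to Gpr183 (r = 0.988), Adora2a to Zyx (0.985), Pnp to Cenps (0.982) and P2rx7 to Maf (0.98). Adk and Nt5e were both closest to Lcp2 (0.986 and 0.971), and Adk was the third gene for Nt5e (0.968). Slc29a1 was closest to Fkbp1a (0.975), Ada to Gng12 (0.966), P2rx4 to Cnn3 (0.962) and Entpd1 to Fkbp11 (0.941).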

How the data were processed

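RNA was sequenced from 45 sorted samples in 8 groups. According to the submitters' notes, the authors used cutadapt 2.10 for trimming, STAR 2.5.3 for alignment to mm10 and Picard for duplicates. They deposited expected counts per gene from RSEM 1.3.0, not normalized. Of these values 8.83% were not whole and were rounded. The gene annotation matched GENCODE M21 in 55423 of 55450 symbols, and positions and exon lengths are from it. The study's methods name another GENCODE release.

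Groups follow the labels, and the days after immunization the study's text. Pairs of groups were tested by edgeR 4.0.16 in R 4.3.3 (filterByExpr, TMM normalization, quasi-likelihood test, Benjamini-Hochberg adjustment over all genes tested), and genes were called at an adjusted p under 0.05 and a fold change over 1.5, or at the adjusted p alone for interactions. The fits were tested on simulated data. Levels are CPM scaled by TMM over all samples, and log2 CPM used a prior count of 2. Alternatives were DESeq2 1.42.0, limma 3.58.1, other scalings, no filter, all groups in one fit, a replicate block, marker scores as covariates, and leaving out each sample. The 10 genes are named throughout. Of the other purine genes, the 4 called ones with the largest change and a mean of at least 1 CPM are named in each WT effector comparison. The genes and lists were chosen with earlier results of these data known. Values below 1 CPM rest on few reads.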

Additional observations from a re-analysis of the deposited data

Results flagged for a closer look

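Of 80 tests of a group's highest or lowest sample against its other samples (Dixon's test), 6 flagged a sample, where chance flags about 1 in 20 groups. Nt5e was at 3.2 CPM in the 5th WT non-GC B sample, against 0.492 to 1.08 CPM in the other 4. Entpd1 was at 118 CPM in the 2nd WT GC B sample, against 39.7 to 62.5 CPM; that sample also had the highest sum of plasma cell markers among WT GC B samples, 8766 CPM. Adk was at 19.8 CPM in the 1st S1PR4-/- non-GC B sample, against 15.7 to 16.1 CPM. Adora2a was at 5.16 CPM in the 3rd S1PR4-/- GC B sample (others 1.8 to 2.96 CPM), at 4.9 CPM in the 6th WT GC B sample (others 2.13 to 2.85 CPM) and at 29.8 CPM in the 4th WT non-TFH sample (others 24.9 to 26.4 CPM).

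For 7 genes the change from non-GC B to GC B cells differed from that from non-TFH to TFH cells in WT mice, by the test of the interaction. The differences of log2 fold changes, B cells minus T cells, were 5.52 for Ada, 3.68 for Nt5e, 1.87 for Adk, -0.63 for P2rx4, -2.17 for Adora2a, -3.02 for Dpp4 and -5.13 for P2rx7.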

How the results depend on the processing

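The count of genes called among the 10 stayed within 1.5 times its value under 97 of 98 alternatives and all 181 fits without one sample. With the plasma cell marker score as a covariate, 4 of 10 genes were called in WT GC B against non-GC B cells, and 1359 of all genes against 6372; the score itself differs between these populations. In that fit the log2 fold changes of P2rx7 (0.46) and Entpd1 (-0.66, and -2.21 in S1PR4-/- mice) turned direction. The calls of Slc29a1, Dpp4, Adora2a and P2rx4 were lost in WT mice and kept in S1PR4-/- mice. No gene of the 10 was called between the genotypes in any fit, though 4 of 750 values had an adjusted p under 0.05. Direction also turned for differences that had not passed the test. Entpd1 between TFH and non-TFH cells of S1PR4-/- mice was 0.54 after adding the B cell score. Between the genotypes in GC B cells, Entpd1 was -0.40 with limma and with the replicate block and -0.085 with the plasma cell score, and Slc29a1 was 0.0049 with no filter, 0.00037 with the replicate block and 5.19e-06 with all groups in one fit.

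Leaving out one sample turned the direction of these log2 differences. In S1PR4-/- TFH against non-TFH cells, Entpd1 ranged from -0.15 to 0.11. Between the genotypes in GC B cells the ranges were -0.47 to 0.44 (Entpd1), -0.060 to 0.039 (Slc29a1) and -0.29 to 0.20 (Adora2a). In non-GC B cells they were -0.39 to 0.79 (Nt5e), -0.053 to 0.071 (Adk), -0.077 to 0.0073 (Pnp), -0.47 to 0.30 (P2rx7) and -0.045 to 0.13 (P2rx4). In TFH cells they were -0.14 to 0.13 (Ada), -0.063 to 0.021 (Pnp) and -0.032 to 0.11 (Dpp4), and in non-TFH cells -0.010 to 0.17 (Nt5e), -0.0063 to 0.16 (Adk), -0.030 to 0.086 (Pnp) and -0.11 to 0.024 (Adora2a). The difference between lineages of Slc29a1 ranged from -0.12 to 0.057. None of these passed the test; the cause was not tested.

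Calls moved at the thresholds. In WT TFH cells, Entpd1 was lost with total counts (adjusted p = 0.062), the replicate block (0.104) and all groups in one fit (0.13), and Dpp4 fell to 0.56 with total counts and with the B cell score. P2rx7 in S1PR4-/- GC B cells was lost with limma (0.143) and with the plasma cell score (0.319), and Entpd1 gained there with all groups in one fit (0.0179). P2rx4 between GC B and TFH cells was called with DESeq2 and with its size factors (0.59 each) and without GC B sample 2, 3 or 4 (0.61 to 0.67), and Ada in S1PR4-/- TFH cells with total counts (-0.61), with the regulatory T cell score (-0.62) and without S1PR4-/- TFH sample 5 (-0.61).

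Counts over all genes between the genotypes were 8 in GC B cells (14 with DESeq2), 7 in non-GC B cells (16 with DESeq2, 25 with all groups in one fit), 67 in TFH cells (191 with DESeq2, 153 with all groups, 15 with the B cell score, 15 to 117 without one sample) and 15 in non-TFH cells (56 with DESeq2, 11 to 27 without one sample). For the interaction of genotype and state they were 0 in B cells (6 with DESeq2) and 2 in T cells (76 with DESeq2, 1 with limma and with total counts, 10 with the replicate block, 41 with the block within genotype, 0 to 6 without one sample).

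The replicate numbers were not taken as pairs in the main tests, as the labels do not say which samples share a mouse. Same-numbered samples deviated together with a mean r of 0.10 in WT and 0.11 in S1PR4-/- T cells, and of 0.06 and -0.02 in B cells. The best match had the same number for 4 of 6 WT and 6 of 6 S1PR4-/- TFH samples. For GC B samples it did for 4 of 5 in WT and 0 of 4 in S1PR4-/- mice. With the replicate block, the calls of Entpd1 in WT TFH cells and of P2rx7 in S1PR4-/- GC B cells (adjusted p = 0.123) were lost, and no other call among the 10 genes changed.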
